A study of Mus musculus with 6 samples.

Results

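The 38 genes described here carry out or control glycolysis or belong to the response to low oxygen. They are listed by name and function, with no threshold on their values, although earlier results of these data were known when the list was made: 4 carry glucose or lactate across the cell membrane, 16 encode glycolytic enzymes, 3 control the flux through the pathway, 3 encode hypoxia-inducible factor 1 alpha or the enzymes that mark it for destruction, and 12 are known targets of that factor. All 38 are among the 24421 genes of the deposited table. All 38 also reached the mean of 0.5 RPKM that was required for a test, as did 11360 genes in all. RPKM is a read count divided by gene length and by the size of the library in reads.

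The cells were naive CD4 T cells from the spleen of wild-type (WT) mice, driven in culture towards Th17 cells, the helper T cells that make interleukin 17. Pemafibrate, a selective activator of the nuclear receptor PPARalpha, was given at 10 nM until day 2 to the cells of 3 samples (titled P3, P7 and P8, here pemafibrate 3, 7 and 8), and 3 samples had vehicle (V3, V4 and V7, here vehicle 3, 4 and 7). All then spent 2 days in IMDM medium with 10% fetal bovine serum before RNA was taken, so what was measured is the state after the end of treatment. Nothing in the labels says whether samples came from separate mice or cultures, so p-values measure only how far these samples scatter, and that scatter may be technical. Mouse age, sex and strain are not given in the sources used here.

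Glycolysis splits glucose into pyruvate, and lactate dehydrogenase turns pyruvate into lactate, which is then exported. Activated T cells run this route at a high rate even with oxygen at hand, and Th17 cells are known to depend on it. HIF-1 alpha, which oxygen-dependent prolyl hydroxylases tag for destruction, pairs with ARNT on DNA at the core letters ACGTG or GCGTG and raises transcription of most glycolytic genes. It is controlled mainly at the level of its protein, which was not measured here.

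The promoters of several of these genes show that core, and the stretches printed here were picked to hold it in enzyme genes (Ldha, Pgk1), in the gene of the factor itself (Hif1a) and in other targets (Bnip3, P4ha2), with Mxi1 as a target whose window lacks it. Each is the 150 bases before the start site in the RefSeq promoter table (build GRCm38.p6), 5′ to 3′ on the gene's strand. Capitals mark ACGTG and GCGTG on either strand, where they read CACGT and CACGC, and the E-box CACGTG holds ACGTG on both strands.
Ldha, chr7:46845654-46845803, plus strand: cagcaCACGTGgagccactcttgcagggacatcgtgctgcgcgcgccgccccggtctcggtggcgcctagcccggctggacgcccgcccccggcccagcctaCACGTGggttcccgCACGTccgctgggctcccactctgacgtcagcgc
Pgk1, chrX:106186950-106187099, plus strand: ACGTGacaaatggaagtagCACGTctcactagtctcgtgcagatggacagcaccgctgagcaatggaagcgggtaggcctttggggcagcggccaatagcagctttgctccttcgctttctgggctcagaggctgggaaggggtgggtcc
Hif1a, chr12:73907717-73907866, plus strand: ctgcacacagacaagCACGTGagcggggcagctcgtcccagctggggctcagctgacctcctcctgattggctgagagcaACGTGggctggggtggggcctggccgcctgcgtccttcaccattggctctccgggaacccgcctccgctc
Bnip3, chr7:138909507-138909656, minus strand: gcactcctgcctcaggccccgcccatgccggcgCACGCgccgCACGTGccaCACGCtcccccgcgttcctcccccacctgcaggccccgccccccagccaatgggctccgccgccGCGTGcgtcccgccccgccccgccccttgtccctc
P4ha2, chr11:54100774-54100923, plus strand: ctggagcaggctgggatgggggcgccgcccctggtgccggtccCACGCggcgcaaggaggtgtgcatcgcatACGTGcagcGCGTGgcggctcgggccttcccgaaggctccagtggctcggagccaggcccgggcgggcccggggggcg
Mxi1, chr19:53310356-53310505, plus strand: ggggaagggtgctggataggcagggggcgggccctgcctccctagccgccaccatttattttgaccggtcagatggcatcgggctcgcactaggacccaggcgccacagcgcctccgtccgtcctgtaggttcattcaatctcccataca

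Over the whole window of 250 bases before to 50 after the start, 34 of the 38 genes had an entry by symbol. ACGTG stood on either strand in 20 of these 34 windows (58.8%), against 27.0% of the 8524 windows of tested genes and 19.6% of all 27025 windows. GCGTG also stood in 20 of 34 (58.8%), against 53.6% and 32.5%, and the E-box CACGTG in 5 (14.7%), against 10.7% and 7.24%. The windows of these genes had a median GC content of 65.0%, against 61.0% for tested genes, and a match is a run of letters, not a shown binding site. One window a gene was used, that of its most upstream entry. For 14 of the 34, among them Hif1a, Ldha and Mxi1 of the printed stretches, that start site lies inside the span RefSeq gives the gene, so a start further upstream may have been missed. In the Bnip3 stretch 13 bases lie in an exon of a Bnip3 transcript with a retained intron in the GENCODE annotation.

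Library size, computed from the deposited values, was 14935351 reads in pemafibrate 7 and 17093142 to 18322467 in the other samples. Reads recovered over all genes came to 0.9929 to 0.9931 of it, so it is close to the reads counted in genes. It need not be the number of reads sequenced. At these sizes 0.0273 to 0.0335 RPKM stood for 1 read in a gene 2000 bases long. T cell markers summed to 1251 to 1316 RPKM in every sample, with 7 of 8 listed genes in the table as analysed. The 5 Th17 markers, mostly Il17f, summed to 1928, 1789.6 and 1987 RPKM in vehicle 3, 4 and 7 and to 1629.5, 1517 and 1339 RPKM in pemafibrate 3, 7 and 8. The list did not move together: Il17a, Il17f and Il23r were lower in all pemafibrate samples than in all vehicle samples, while the chemokine receptor gene Ccr6 was higher, at 22.8, 22.2 and 24.0 against 34.8, 32.5 and 32.6 RPKM. Markers of other cells were low. The 5 B cell genes summed to 5.18 to 6.23 RPKM, the 6 myeloid genes to 5.34 to 9.83, the 3 NK cell genes to 0.0472 to 0.202, the pair of CD8 genes to 4.86 to 6.98 and the 3 platelet genes to 0.656 to 1.66. The haemoglobin genes Hba-a1 and Hbb-bt had 0 reads in all 6 samples.

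For nearly all of these genes the difference between the groups lay within the spread of the replicates. Over all 11360 genes, limma on log2(RPKM + 0.5) with Benjamini-Hochberg adjustment called 40 at an adjusted p under 0.05 (0.352% of those tested) and 0 of the 38. At an unadjusted p under 0.05 it found 1 of the 38, Hif1a, where 9.67% of all tested genes reached that level. In 1 of the 38, again Hif1a, the groups did not overlap, against 15.0% of all tested genes. Voom on reads recovered from the RPKM values called 1 of the 38, Hif1a, against 1.23% of 11853 genes, and limma with array weights also called Hif1a alone among them, against 1.23% of 11360. The authors' deposited table lists 2 of the 38 at an adjusted p under 0.05, Hif1a and P4ha2, against 1.19% of its 24421 genes. The median log2 difference (pemafibrate minus vehicle) of the 38 was -0.03, with 15 genes above 0 and 23 below, beside a median of 0.0052 over all genes tested. That sign was set by single libraries: without vehicle 7 the median was 0.05 with 30 genes above 0, without pemafibrate 8 it was 0.02 with 24 above, and with array weights 0.01 with 23 above. A log2 difference larger than 0.1 in either direction was found in 6 of the 38 (15.8%), against 28.2% of all genes. In such bulk samples, fewer cells of a type and less RNA per cell cannot be told apart.

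**Figure D1:**
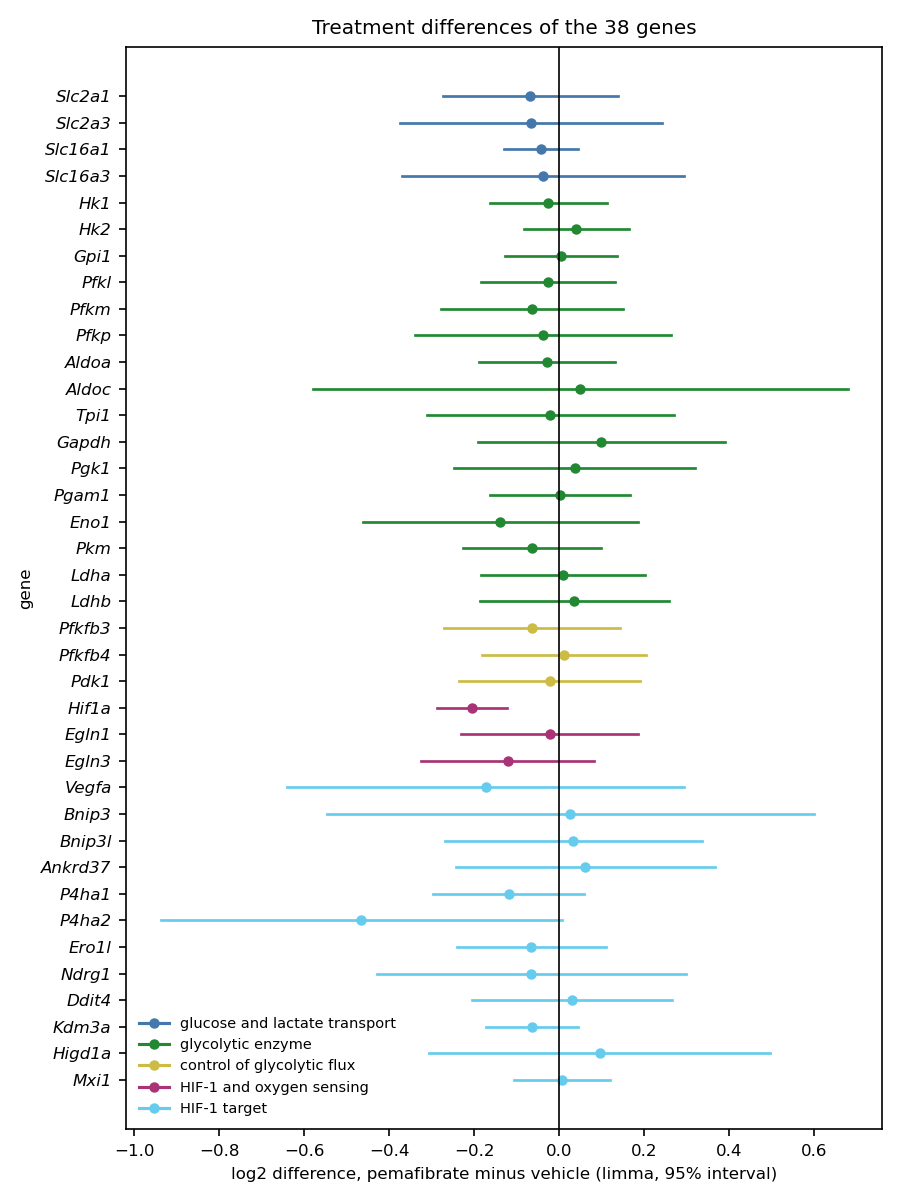
Treatment difference of each of the 38 genes on the log2(RPKM + 0.5) scale (x axis, pemafibrate minus vehicle), with the limma 95% interval as a bar, one gene a row and coloured by role. Only the interval of Hif1a, from -0.29 to -0.12, leaves out 0, and the widest intervals are those of Aldoc, Bnip3, Vegfa and P4ha2.

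Hif1a, which encodes the oxygen-regulated subunit of HIF-1 (chromosome 12, 73901324 to 73947554 in GRCm38.p6), was the gene whose values followed the treatment most closely. It measured 273, 271 and 264 RPKM in vehicle 3, 4 and 7 and 236, 237 and 227 RPKM in pemafibrate 3, 7 and 8. Every pemafibrate sample lay below every vehicle sample, and the replicates within each group were close, with means of 269 ± 4.75 and 233 ± 5.30 RPKM (SD, n = 3). The log2 difference was -0.21 ± 0.04 (SE), a 13.3% lower mean. The limma adjusted p over all genes was 0.0743, and over 16 alternatives it ran from 0.00989 with voom to 0.729 with the title number as a block, where the log2 difference was -0.18. The authors' deposited table gives Hif1a an adjusted p of 0.000907. Of the Th17 markers Il17a, Il17f and Il23r were also lower in the 3 pemafibrate samples and Ccr6 was higher, and their part in the Hif1a values was not tested.

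The prolyl hydroxylase genes, whose products mark HIF-1 alpha for destruction when oxygen is present, had no such separation. Egln3, itself a HIF target, measured 139, 145 and 166 RPKM in vehicle 3, 4 and 7 and 145, 147 and 122 RPKM in pemafibrate 3, 7 and 8. Pemafibrate 8 was the lowest sample and vehicle 7 the highest, while the other 4 lay within 139 to 147 RPKM. The log2 difference of Egln3 was -0.12 ± 0.09 (limma adjusted p = 0.756). Egln1, the main oxygen sensor of most cells, measured 44.6, 45.7 and 53.9 against 51.3, 48.3 and 42.3 RPKM, again highest in vehicle 7 and lowest in pemafibrate 8. Per length, Egln3 stood 3.02 times above Egln1 on average over the 6 samples.

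P4ha2, a subunit of the collagen prolyl 4-hydroxylase (chromosome 11, 54100924 to 54131668), had the largest fitted difference of the 38. Its levels were 2.85, 3.47 and 5.40 RPKM in vehicle 3, 4 and 7 and 2.82, 2.89 and 2.15 RPKM in pemafibrate 3, 7 and 8. Vehicle 7 alone stood well above the rest, and the groups overlapped, since vehicle 3 lay below pemafibrate 7. The log2 difference was -0.47 ± 0.20 (limma adjusted p = 0.521), and -0.24 without vehicle 7. The authors' deposited table gives P4ha2 an adjusted p of 0.0307. P4ha1, the more abundant subunit gene by 10.8 times per length, measured 34.6, 35.5 and 40.1 against 34.8, 36.0 and 30.5 RPKM (log2 difference -0.12 ± 0.08, limma adjusted p = 0.723).

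Other HIF-1 targets varied more between samples of one group than between the groups. Bnip3, which encodes a mitochondrial protein of mitophagy and cell death, measured 40.5, 33.2 and 60.4 RPKM in vehicle 3, 4 and 7 and 58.0, 44.7 and 33.1 RPKM in pemafibrate 3, 7 and 8. Its highest vehicle and highest pemafibrate values thus nearly met, as did its lowest ones, and the log2 difference was 0.03 ± 0.25 (limma adjusted p = 0.986). Vegfa, the gene of the main angiogenic growth factor, measured 2.92, 3.21 and 5.07 against 3.94, 3.11 and 2.58 RPKM (log2 difference -0.17 ± 0.20, limma adjusted p = 0.856), and 0.04 without vehicle 7. Higd1a, which encodes a mitochondrial inner membrane protein, measured 50.2, 44.1 and 62.9 against 70.8, 52.5 and 45.8 RPKM (log2 difference 0.09 ± 0.17, limma adjusted p = 0.925). For these 3 genes vehicle 7 and pemafibrate 3 were the highest samples of their groups.

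**Figure D2:**
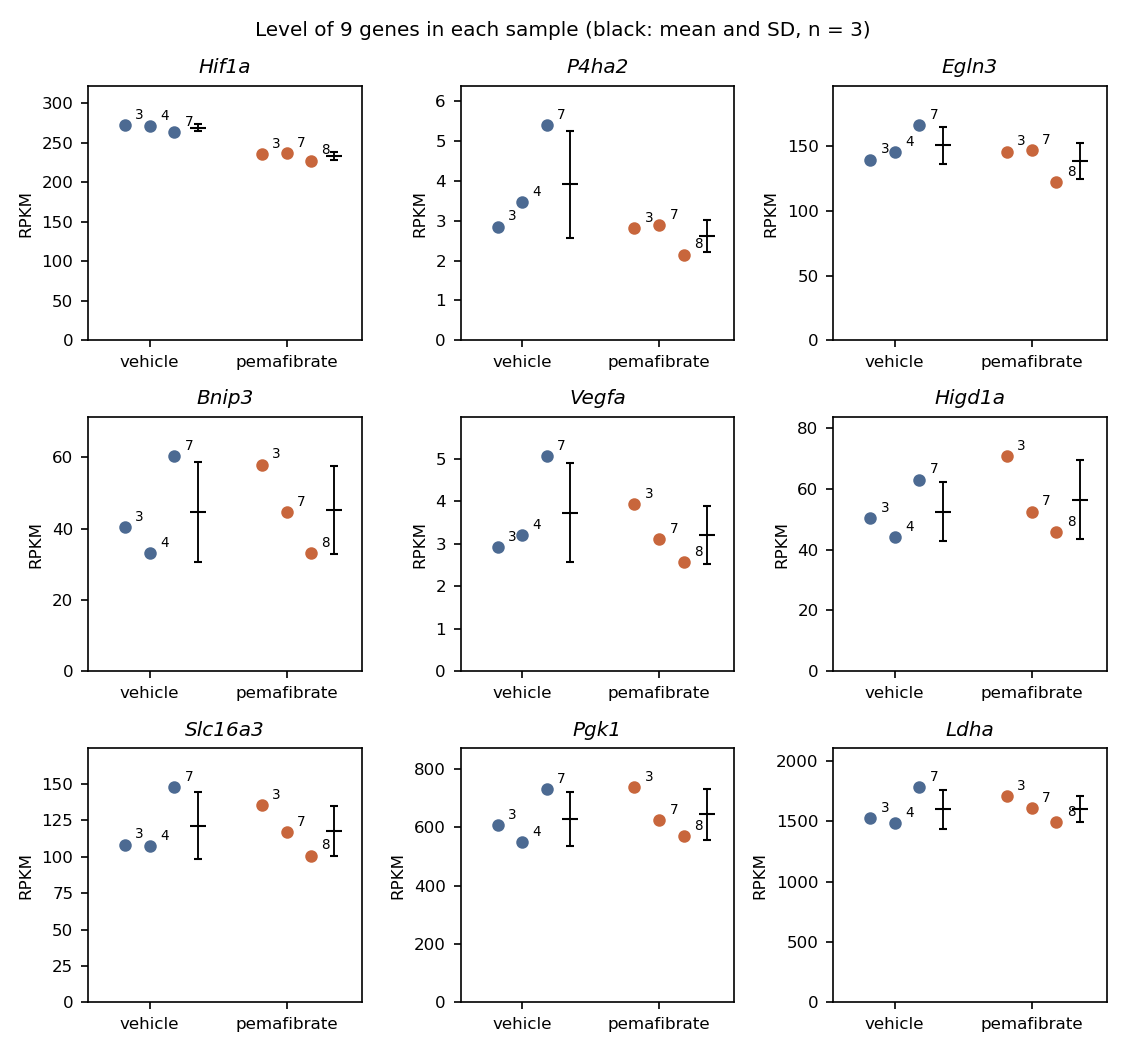
RPKM (y axis, from 0) of 9 of the genes in each sample, numbered by its title, with vehicle in blue, pemafibrate in orange, and the mean and SD of each group (n = 3) in black. Hif1a separates the groups, at 264 to 273 against 227 to 237 RPKM, while for the other 8 genes vehicle 7 is the highest vehicle sample and pemafibrate 8 the lowest pemafibrate sample.

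The same library order ran through further targets. Bnip3l, a relative of Bnip3 that acts in mitophagy, measured 28.8, 26.9 and 35.3 against 36.4, 30.5 and 26.4 RPKM. Ndrg1, a stress-induced gene, measured 18.6, 18.4 and 27.1 against 22.2, 21.3 and 17.1 RPKM. Ddit4, whose product REDD1 inhibits the growth kinase complex mTORC1, measured 175, 177 and 221 against 199, 209 and 175 RPKM. In each of these 3 vehicle 7 was the highest vehicle sample and pemafibrate 8 the lowest pemafibrate sample. Ero1l (Ero1a in RefSeq), an oxidase for protein folding in the endoplasmic reticulum, went from 28.1 to 35.3 RPKM over the 6 samples, and Ankrd37, an ankyrin repeat gene, from 9.35 to 13.4 RPKM. Kdm3a and Mxi1 were flatter. Kdm3a, a histone demethylase gene, measured 25.0, 25.7 and 23.7 against 22.8, 24.4 and 23.9 RPKM (log2 difference -0.06 ± 0.05, limma adjusted p = 0.757), with vehicle 7 the lowest of its group. Mxi1, an antagonist of MYC, stayed between 11.8 and 12.8 RPKM in all 6 samples.

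The glycolytic enzyme genes ranged from 2.21 RPKM (Aldoc) to 1605 RPKM (Pkm) on average, and their sum did not follow treatment. Behind Pkm, which encodes muscle-type pyruvate kinase, came Ldha, the A subunit of lactate dehydrogenase, at 1598 RPKM, Aldoa (aldolase A) at 981, Tpi1 (triose phosphate isomerase) 889, Pgk1 (phosphoglycerate kinase) 636, Pgam1 (phosphoglycerate mutase) 428 and Gapdh 294. Summed over the 16 enzyme genes, the level was 6671, 6497 and 7866 RPKM in vehicle 3, 4 and 7 and 7458, 6857 and 6491 RPKM in pemafibrate 3, 7 and 8. The groups overlapped throughout, with means of 7012 ± 745 and 6935 ± 489 RPKM (SD, n = 3). These genes took 1.399% to 1.68% of the reads, highest in vehicle 7 and lowest in pemafibrate 8.

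Most single enzymes followed their sum. Ldha measured 1524, 1481 and 1783 RPKM in vehicle 3, 4 and 7 and 1705, 1604 and 1494 RPKM in pemafibrate 3, 7 and 8, a log2 difference of 0.0075 ± 0.083 (limma adjusted p = 0.988). Pgk1 measured 606, 549 and 730.0 against 738, 625 and 568 RPKM (log2 difference 0.04 ± 0.12, limma adjusted p = 0.964). Both genes hold the core in the stretches printed above, and in both vehicle 7 and pemafibrate 3 were the highest of their groups. Pkm measured 1566, 1553 and 1811 against 1632, 1535 and 1535 RPKM (log2 difference -0.06 ± 0.07, limma adjusted p = 0.842). Gapdh, which oxidises glyceraldehyde 3-phosphate, measured 267, 265 and 317 against 366, 290.1 and 259 RPKM, and its log2 difference of 0.10 ± 0.13 (limma adjusted p = 0.874) was -0.04 without pemafibrate 3. Gapdh, often used as a reference gene, thus differed by more between pemafibrate 3 and pemafibrate 8 than between the group means of 283 and 305 RPKM. Of the entry steps, Hk1 (hexokinase 1) went from 78.9 to 93.5 RPKM and Hk2 (hexokinase 2) from 39.7 to 45.2 RPKM over the 6 samples, and Gpi1, glucose phosphate isomerase, from 188 to 214 RPKM.

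Lactate dehydrogenase and aldolase were each dominated by 1 gene in every sample, while hexokinase and phosphofructokinase were shared between genes. Per length, Ldha stood 160 times above Ldhb on average, and between 139 and 184 times in single samples. Aldoa stood 444 times above Aldoc, the brain form, which measured 1.48 to 3.25 RPKM. Of the phosphofructokinase genes, Pfkl (liver type) averaged 109 RPKM, 1.28 times the level of Pfkp (platelet type) and 13.4 times that of Pfkm (muscle type). Hk1 stood 1.98 times above Hk2. Some isoenzymes of other tissues were close to absent: Pklr (liver and red cell pyruvate kinase) had 0 to 2 reads a sample and Ldhc (testis form of lactate dehydrogenase) 0 to 2. Others were not: of 28 listed genes for other isoenzymes and sugar entry, 18 reached the level required for a test and 10 fell below it. Eno1 cannot be read in this way. It measured 2.30 to 3.30 RPKM (log2 difference -0.14 ± 0.14, limma adjusted p = 0.831), while its nearly identical intronless copy Eno1b measured 142 to 183 RPKM, 57.2 times as much on average. Reads of the abundant enolase message cannot be assigned between the copies from these values, so both are uncertain.

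Of the 3 flux regulators 2 showed the same library order at lower levels. Pfkfb3, whose product makes the phosphofructokinase activator fructose 2,6-bisphosphate, measured 14.8, 16.1 and 18.3 RPKM in vehicle 3, 4 and 7 and 16.3, 16.5 and 14.1 RPKM in pemafibrate 3, 7 and 8, and stood 6.58 times above Pfkfb4 on average. Pdk1, whose product inhibits pyruvate dehydrogenase and so limits what that enzyme feeds into the citric acid cycle, measured 26.3, 24.0 and 29.99 against 29.1, 25.1 and 24.6 RPKM. In both genes vehicle 7 was the highest vehicle sample and pemafibrate 8 the lowest pemafibrate sample. Pfkfb4 was the exception: it stayed between 2.33 and 2.59 RPKM and was lowest in pemafibrate 3 among the pemafibrate samples.

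Transporter genes split by how much they varied. Slc2a1, which encodes GLUT1, the main glucose transporter of activated T cells, measured 87.6, 89.7 and 109 RPKM in vehicle 3, 4 and 7 and 93.6, 95.2 and 83.5 RPKM in pemafibrate 3, 7 and 8 (log2 difference -0.07 ± 0.09, limma adjusted p = 0.876). Vehicle 7 was again the highest sample and pemafibrate 8 the lowest. Slc16a3, the lactate exporter MCT4, measured 108, 108 and 148 against 135, 117 and 101 RPKM (log2 difference -0.04 ± 0.14, limma adjusted p = 0.968). Slc16a1, the lactate carrier MCT1, measured 35.6, 37.6 and 36.5 against 35.7, 34.7 and 36.0 RPKM (log2 difference -0.04 ± 0.04, limma adjusted p = 0.812), with the groups overlapping and no sample apart. Slc2a3, which encodes GLUT3, measured 6.94 to 10.0 RPKM and Slc2a1 stood 10.9 times above it per length. Slc16a3 stood 3.32 times above Slc16a1, from 2.80 to 4.05 times in single samples.

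The order of the libraries was thus shared by most of the 38 genes and crossed the treatment groups. Vehicle 7 was the highest vehicle sample for 33 of the 38 (86.8%), where it was so for 33.5% of all tested genes. Pemafibrate 8 was the lowest pemafibrate sample for 31 (81.6%), against 34.1%, and pemafibrate 3 the highest for 24 (63.2%), against 34.3%. Vehicle 7 highest together with pemafibrate 8 lowest was found for 29 of the 38 (76.3%), against 15.8% of all tested genes. This count was 30 (78.9%, against 17.3%) after median ratio scaling, 26 (68.4%, against 15.0%) after quantile normalization and 31 (81.6%, against 16.6%) after removal of a gene length trend. It is a description of these 6 libraries with no test, since the genes of one pathway are not independent of each other. The order was also not planned but taken from the values of these same genes. A share above that of all tested genes is therefore in part built in. The 5 genes for which vehicle 7 was not the highest vehicle sample were Hif1a, Kdm3a, Mxi1, Slc16a1 and Eno1.

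**Figure D3:**
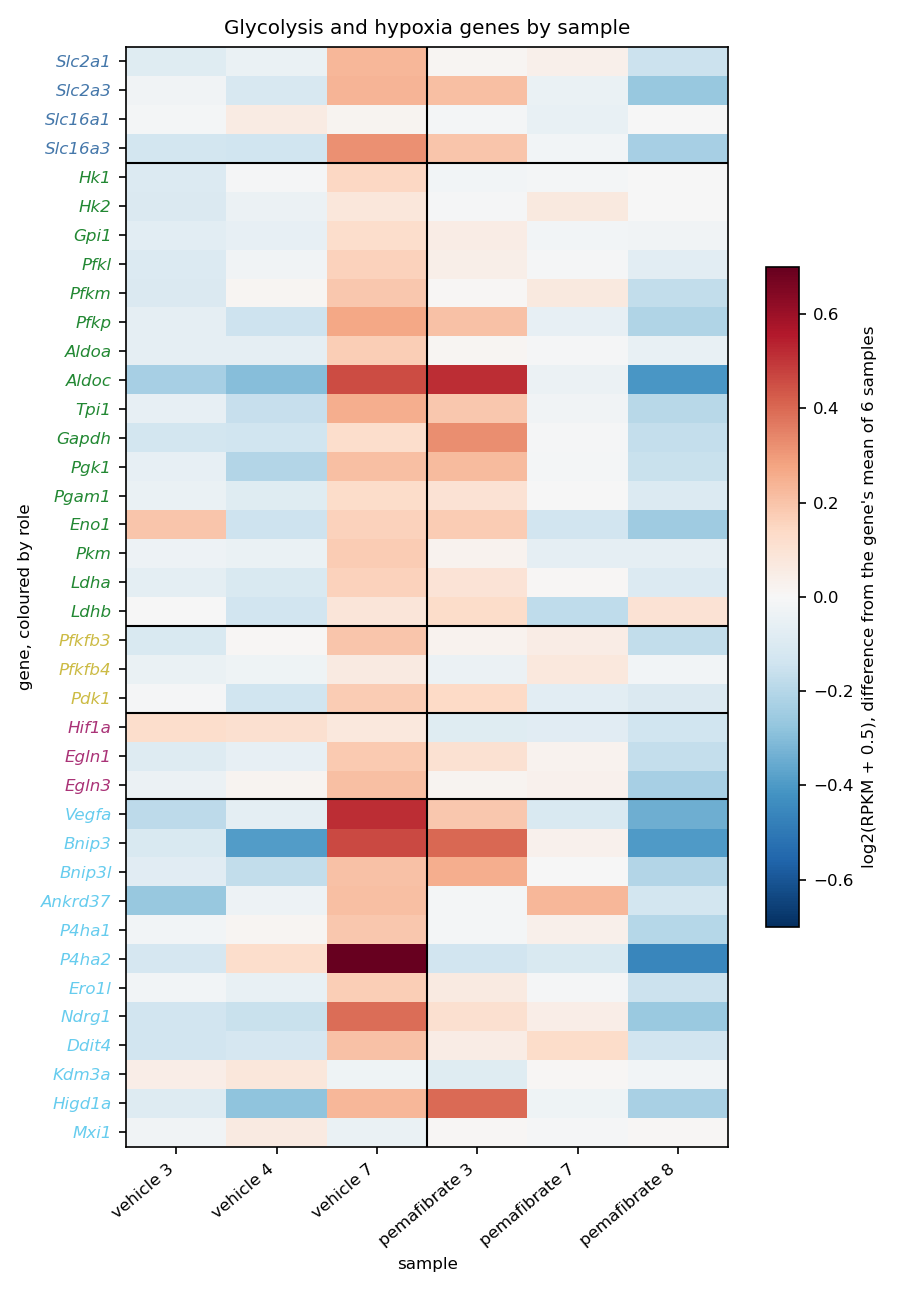
Difference of log2(RPKM + 0.5) from each gene's mean over the 6 samples (colour, red above and blue below), one gene a row and one sample a column, in blocks from top to bottom of transport, glycolytic enzymes, flux control, HIF-1 and oxygen sensing, and HIF-1 targets. Vehicle 7 is the reddest column and pemafibrate 8 the bluest, and only Hif1a separates the groups at the line between them.

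In numbers, the median deviation of the 38 genes from their own group mean was 0.16 on the log2 scale in vehicle 7, -0.08 in vehicle 3 and -0.09 in vehicle 4. It was 0.09 in pemafibrate 3, 0.0028 in pemafibrate 7 and -0.14 in pemafibrate 8. Over all tested genes these medians lay between -0.0056 and 0.0053. The SD within groups had a median of 0.14 (log2) for the 38 genes and 0.21 for the 12 HIF-1 targets, against 0.08 for all tested genes. Aldoc, Bnip3, P4ha2, Vegfa, Higd1a and Ndrg1 had the largest SDs, from 0.26 for Ndrg1 to 0.44 for Aldoc.

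Gene length and other cells moved with these libraries in part, and their values stand here beside the result. Short genes as a whole leaned the same way, by far less: for the 3851 tested genes of up to 2000 bases the median deviation was 0.02 in vehicle 7, 0.02 in pemafibrate 3 and -0.02 in pemafibrate 8. The 12 longest of the 38, over 4000 bases, had medians of 0.13 in vehicle 7, 0.03 in pemafibrate 3 and -0.06 in pemafibrate 8. All 3143 tested genes of that length had medians of -0.02, -0.02 and 0.02 in those samples. The summed level of the 6 myeloid markers ran the other way, at 8.80, 7.54 and 5.55 RPKM in vehicle 3, 4 and 7 and 5.34, 6.07 and 9.83 RPKM in pemafibrate 3, 7 and 8. Most of this sum was Lyz2, the lysozyme gene, at 4.32 to 8.95 RPKM. The other 5 lay below 1 RPKM in every sample. Among them Cd14 was highest in vehicle 7, at 0.266, 0.247 and 0.626 against 0.164, 0.202 and 0.136 RPKM. These values stand for 8, 7 and 18 against 5, 5 and 4 reads, too few to order the pemafibrate samples. The part of these markers in the order of the glycolytic genes was not tested.

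**Figure D4:**
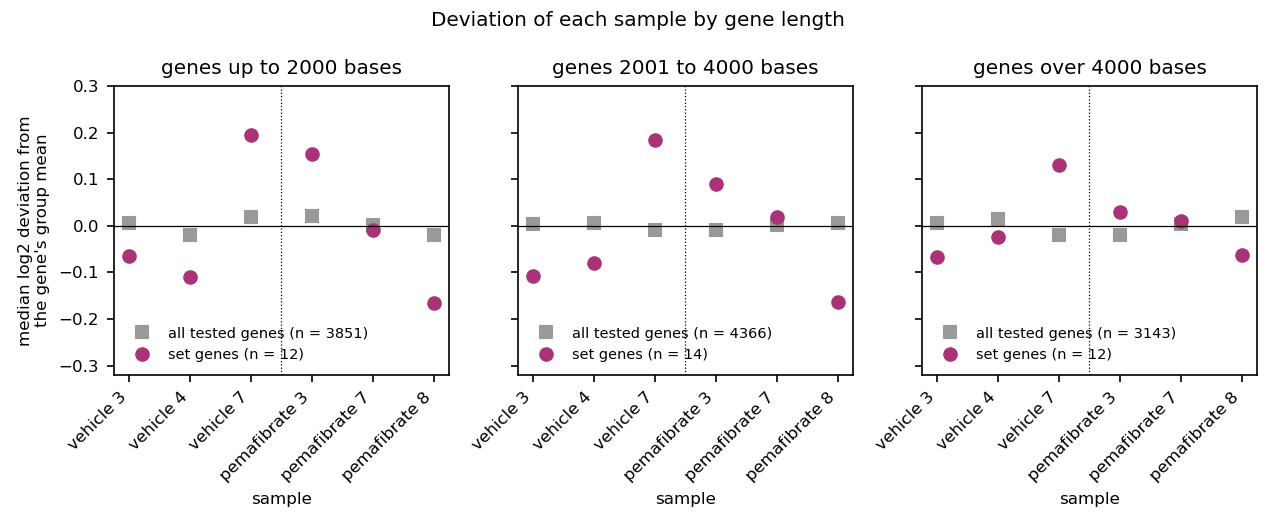
Median log2 deviation from the gene's group mean (y axis) in each sample (x axis) for genes of the set (circles) and all tested genes (squares), in 3 classes of gene length. In vehicle 7 the set lies at 0.20, 0.18 and 0.13 from the shortest to the longest class, while all tested genes lie at 0.02, -0.0094 and -0.02.

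The core letters in the promoters can be set beside this order. Of the 25 genes with a promoter entry for which vehicle 7 was the highest and pemafibrate 8 the lowest of its group, 17 held ACGTG, and of the 9 with another order 3 did, namely Slc16a1, Hk2 and Hif1a. Pkm, Aldoa, Tpi1, Gpi1 and Vegfa held neither core in this window and still showed the order. With 34 genes this is a description only.

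Genes around the pathway were read from lists of related genes. Of 18 tested genes for other glycolytic isoenzymes and sugar entry 0 passed limma and 0 passed voom, and 0 had an unadjusted p under 0.05. The 3 with the smallest p were Minpp1, a phosphatase gene for inositol phosphates and bisphosphoglycerate (log2 difference 0.14 ± 0.06), Pfkfb1 (0.26 ± 0.13) and the sugar transporter gene Slc2a8 (0.17 ± 0.09). Vehicle 7 highest with pemafibrate 8 lowest was seen in 6 of the 18 (33.3%), against 15.8% of all tested genes.

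For the fate of pyruvate in mitochondria, 0 of 22 tested genes passed limma or voom. An unadjusted limma p under 0.05 was found in 5, of which 4 were higher and 1 lower with pemafibrate, against 9.67% of all tested genes. Pcx, which encodes pyruvate carboxylase and so makes oxaloacetate from pyruvate, measured 6.17, 7.30 and 7.32 RPKM in vehicle 3, 4 and 7 and 7.79, 9.28 and 9.18 RPKM in pemafibrate 3, 7 and 8. All pemafibrate samples lay above all vehicle samples (log2 difference 0.32 ± 0.09, limma adjusted p = 0.275). The subunit genes Pdhb and Dlat of pyruvate dehydrogenase, which feeds pyruvate into the citric acid cycle, had log2 differences of 0.12 ± 0.04 and 0.15 ± 0.06 (limma adjusted p = 0.353 and 0.449), each without overlap of the groups. Groups did not overlap in 7 of the 22 genes, against 15.0% of all tested genes. Vehicle 7 highest with pemafibrate 8 lowest was found in 10 of the 22 (45.5%), against 15.8% of all tested genes. Pdk4, a pyruvate dehydrogenase kinase gene known as a PPARalpha target, had 0 reads in all samples.

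For oxygen sensing and HIF subunits, 0 of 17 tested genes passed limma, 0 passed voom and 0 had an unadjusted p under 0.05. Arnt, the partner of HIF-1 alpha, measured 19.0, 21.1 and 20.7 against 19.9, 20.2 and 21.3 RPKM, with overlapping groups. Epas1, which encodes HIF-2 alpha, had 1 to 11 reads a sample. The smallest p belonged to Cited2, which competes with HIF-1 for its coactivators (log2 difference -0.22 ± 0.10), to Vhl, the ubiquitin ligase subunit that binds hydroxylated HIF (0.11 ± 0.06), and to Tceb1, elongin C of the same ligase (0.10 ± 0.07), with limma adjusted p of 0.542, 0.648 and 0.730. Vehicle 7 highest with pemafibrate 8 lowest was seen in 4 of the 17 (23.5%), against 15.8% of all tested genes.

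Of 40 tested other genes known to rise in hypoxia, limma called 1, lower with pemafibrate, where it called 0.352% of all tested genes. An unadjusted p under 0.05 was found in 5, of which 2 were higher and 3 lower, against 9.67% of all tested genes. In 6 of the 40 the groups did not overlap, against 15.0%. Cxcr4, the receptor of the chemokine CXCL12, measured 61.2, 56.8 and 61.0 RPKM in vehicle 3, 4 and 7 and 42.2, 41.1 and 39.9 RPKM in pemafibrate 3, 7 and 8. It fell by 0.53 ± 0.04 on the log2 scale (limma adjusted p = 0.0104). Over 16 alternatives the adjusted p of Cxcr4 ran from 0.000117 to 0.131, and it missed the threshold without vehicle 3 (0.0682), without pemafibrate 7 (0.0641) and with the title number as a block (0.131). Voom called Cxcr4 alone in this list. Sesn2, a stress-induced inhibitor of mTORC1, and Gpr146, a receptor gene, had log2 differences of -0.22 ± 0.06 and 0.17 ± 0.05 (limma adjusted p = 0.215 and 0.242). Vehicle 7 highest with pemafibrate 8 lowest was found in 21 of the 40 genes (52.5%), against 15.8% of all tested genes.

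Of 29 tested regulators of glycolytic genes and of glucose sensing, 0 passed limma, and 3 had an unadjusted p under 0.05, all lower with pemafibrate, a share near the 9.67% of all tested genes at that level. Mxd1, a repressor that competes with MYC for MAX, measured 40.8, 42.7 and 38.2 against 31.1, 33.8 and 34.9 RPKM (log2 difference -0.28 ± 0.06, limma adjusted p = 0.120). Voom called Mxd1 (adjusted p = 0.0175), as did limma with array weights (adjusted p = 0.0416). Over 16 alternatives the adjusted p of Mxd1 ran from 0.0175 to 0.526. Myc, the growth factor-induced activator of glycolytic genes in T cells, measured 149, 160.3 and 140.2 against 128, 129 and 140.0 RPKM (log2 difference -0.18 ± 0.06, limma adjusted p = 0.374). Its lowest vehicle sample and highest pemafibrate sample differed by less than 1 RPKM. For Foxo1, a transcription factor restrained by growth factor signals, the log2 difference was -0.09 ± 0.04 (limma adjusted p = 0.506). In this list 2 of 29 genes (6.9%) had vehicle 7 highest and pemafibrate 8 lowest, against 15.8% of all tested genes.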

How the data were processed

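Libraries were made with a stranded mRNA kit from total RNA, per the labels' protocols. The submitters' processing notes name HISAT2 2.1.0, Trimmomatic 0.35, bcl2fastq, edgeR and featureCounts 1.4.6 as tools and GRCm38 (mm10) as the build. The strand setting of the counting and the annotation are not given in the sources used here. Whether reads of a gene were counted apart from those of an antisense gene over it is therefore not known. The authors deposited RPKM per gene for 6 samples and, in the same table, a p-value, an adjusted p-value and a log2 fold change per gene, whose model the table does not state. The treatment label gave each sample's group, and the numbers are those of the titles.

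Treatment was tested with limma 3.58.1 in R 4.3.3 on log2(RPKM + 0.5) with a trend in the prior variance, for genes averaging 0.5 RPKM or more, two-sided, with Benjamini-Hochberg adjustment over all of them. A fold change on this scale understates the change of low genes. Ratios of RPKM values came out as whole reads for 16822 of 16822 genes above 0 (100.0%, relative tolerance 1e-06), and limma's voom was run on these reads for genes with a mean of at least 10 of them. The other alternatives were array weights, quantile normalization, median ratio scaling, pseudocounts of 0.1 and 1 RPKM, a filter at 2 RPKM or none, the title number as a block and each sample left out, with removal of a gene length trend added after seeing the data. The fit was tested on simulated data.

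The genes and the related lists were chosen with earlier results of these data known, so no p-value was adjusted over them alone. Named genes are all 38, and from each related list the called genes and up to 3 with the smallest p, together with isoenzymes of other tissues. Arnt, Pdk4, Epas1 and Eno1b were named after their values were seen. Some listed genes are not reported here. Gene coordinates and promoters are those of RefSeq, GRCm38.p6. Python 3.11.15 and matplotlib 3.10.9 drew the figures.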

Additional observations from a re-analysis of the deposited data

How the results depend on the processing

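The count of genes called by limma, 40, was 7 with no filter, 140 with array weights and 146 with voom on recovered reads. Leaving out a vehicle sample gave 2 (number 3), 8 (number 4) and 18 (number 7), and leaving out a pemafibrate sample gave 25 (number 3), 0 (number 7) and 15 (number 8), a range of 0 to 25. Among the 38 genes the count called was 0, 1 with array weights and 1 with voom on recovered reads. With the title number as a replicate block, 0 genes were called in all. The groups share only the numbers 3 and 7, and the deviations of same-numbered samples correlated across 11360 genes at 0.03 (number 3) and -0.0083 (number 7). All 9 vehicle and pemafibrate pairs ran from -0.22 (vehicle 4 with pemafibrate 3) to 0.20 (vehicle 4 with pemafibrate 8), with 0.18 for vehicle 7 and pemafibrate 3. Same-numbered samples thus did not have the highest values of the 9. The deviations of a group sum to 0, so these values cannot decide whether the numbers pair the samples. The log2 difference of Slc2a1 (-0.07) was 0.0037 and that of Slc16a3 (-0.04) was 0.0132 with array weights. With one sample left out, log2 differences ran from -0.311 to 0.0409 for Vegfa, from -0.0388 to 0.208 for Gapdh, from -0.0804 to 0.233 for Higd1a, from -0.104 to 0.00691 for Pkm, from -0.127 to 0.0315 for Slc2a1, from -0.143 to 0.113 for Slc16a3, from -0.0669 to 0.149 for Pgk1, from -0.169 to 0.263 for Bnip3 and from -0.044 to 0.09 for Ldha. The cause of these shifts was not tested. Of 496 recomputed log2 differences of single genes, 471 kept their direction and their side of the threshold, and 18 changed sign. Few of these genes were called in any setting, so staying on the same side of the threshold says little. The counts of genes called are not among the 496. With 3 samples a group, intervals such as that of Bnip3 (-0.55 to 0.60) leave room for changes that these samples could not show.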

Other observations

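Outside the lists, other genes had the same order of libraries. Among 8198 tested genes averaging 5 RPKM or more, 921 (11.2%) had vehicle 7 and pemafibrate 3 as the highest of their groups and pemafibrate 8 as the lowest, and 19 of them belong to the 38 genes of the report. The examples that follow were chosen after their values were seen, among the 30 with the largest SD within groups. Itga7, an integrin subunit gene, measured 6.53, 6.78 and 13.5 RPKM in vehicle 3, 4 and 7 and 10.2, 7.86 and 5.58 RPKM in pemafibrate 3, 7 and 8. Tgm2, which encodes tissue transglutaminase, measured 47.8, 38.8 and 64.7 against 59.0, 43.0 and 33.9 RPKM. The lipid gene Fads2, a fatty acid desaturase, measured 8.28, 10.7 and 16.3 against 12.4, 10.1 and 8.49 RPKM, and the interferon-induced gene Ifitm3 measured 20.2, 14.8 and 28.6 against 20.8, 15.2 and 13.3 RPKM. Vehicle 7 stood highest of all 6 samples in each of these genes, but not in all 30. In others of them pemafibrate 3 stood highest, such as Ifi27, at 9.72 RPKM in vehicle 7 and 11.9 RPKM in pemafibrate 3.

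Of hypoxia-induced genes beside the 38, also named after their values were seen, Mgarp, a mitochondrial protein gene, gave 101, 77 and 217 reads in vehicle 3, 4 and 7. The counts of pemafibrate 3, 7 and 8 were 168, 94 and 72. Ak4, an adenylate kinase gene, measured 7.47, 7.32 and 12.0 against 9.70, 8.33 and 6.30 RPKM. The precursor gene of miR-210, a microRNA known to rise in hypoxia, was barely covered, at 3, 2 and 8 reads in the vehicle samples against 13, 3 and 2 with pemafibrate. These mRNA libraries do not measure the mature microRNA, whose RefSeq sequence is given with its seed, bases 2 to 8, in capitals (chr7:141221407-141221428, minus strand, GRCm38.p6).
mmu-miR-210-3p: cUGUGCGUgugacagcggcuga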
